A study of Mus musculus with 24 samples.

Results

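The young platelet fraction and the young plasma preparation it is spun from were compared directly in the aged hippocampus. The young platelet fraction had been given to 6 mice, and their hippocampi are libraries 7145, 7148, 7151, 7154, 7157 and 7595. The young plasma preparation had been given to 6 others, with libraries 7144, 7147, 7150, 7156, 7159 and 7594. These 12 libraries were chosen from the 24 of the series by their treatment label, and 5 hippocampi from mice given saline (7143, 7146, 7152, 7155 and 7596) served to put both sets on a common scale. All 17 mice were male, of the C57BL/6 strain and 20 months old, and each had 8 tail vein injections of 100 μl over 24 days. Plasma was prepared by the study from the EDTA blood of young mice and dialysed. The platelet fraction was the pellet of such plasma after a faster spin, taken up in saline of equal volume, so the plasma preparation itself still held platelets and the comparison is of a fraction with the preparation it came from.

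Plasma carries soluble proteins, hormones and vesicles, whereas platelets are anucleate fragments of megakaryocytes that store chemokines, growth factors and adhesion proteins in granules and release them when activated. Cells and most large proteins of the blood do not cross the blood-brain barrier freely, and endothelial cells, the choroid plexus and circulating immune cells are the usual routes by which blood factors are sensed by the brain. The hippocampus was taken whole, so each value averages over granule cells, pyramidal cells, interneurons, glia and vessels, and fewer cells of a type cannot be told apart from less RNA per cell.

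Values are normalized counts, in which the reads of each gene have been scaled for library depth. Total reads ranged from 6763608 to 7438930 in young platelet fraction hippocampi and from 6586357 to 7739868 in young plasma hippocampi (exact permutation test, two-sided p = 0.684). Libraries listed 16315 to 16517 detected genes after young platelet fraction and 16319 to 16539 after young plasma. Reads carry no molecular identifiers and each mouse gave a single library. The intervals therefore hold the spread between mice together with that of library preparation and counting. Defining markers of dentate granule cells (Prox1), interneurons (Gad1), oligodendrocytes (Mbp), astrocytes (Gfap), microglia (Cx3cr1) and endothelium (Cldn5) were present in all 17 hippocampi. The lymphocyte markers Cd3e of T cells and Cd79a of B cells were near 0, at no more than 2.18 and 3.33 normalized counts in any library. Lck, in the list of border macrophage and blood leukocyte genes, was not. It had 12.9 to 41.6 after young platelet fraction, 9.42 to 37.6 after young plasma and 8.46 to 32.5 after saline. S100a8 of neutrophils reached 26.6 after young platelet fraction, 7.74 after young plasma and 6.04 after saline, and the red cell marker Hba-a1 was present in all libraries. On the first principal component of the 12 treated libraries, which held 26.4% of the variance, mouse 7148 of the young platelet fraction and mice 7147 and 7150 of young plasma stood apart. The treatments did not separate on either of the first components, and the median distance between libraries was 0.578 (root mean square log2) between the groups, against 0.601 within young platelet fraction and 0.593 within young plasma.

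Few genes passed even an unadjusted threshold in the comparison of the preparations. A gene was tested where 5 or more of the 12 treated libraries reached a normalized count of 10. Of 13693 such genes, 260 passed an unadjusted limma P of 0.05, which is 1.90% of those tested. If no gene differed, a P of 0.05 would on average pass more genes than this. Of these, 119 were higher after young platelet fraction (0.869%) and 141 were lower (1.03%). None passed 0.05 after Benjamini-Hochberg adjustment by limma, and none did by edgeR, with 279 genes at an unadjusted P of 0.05, or by DESeq2, with 276. Scaling to library totals gave 94 higher and 179 lower genes in place of 119 and 141, so the balance of directions rests on the scaling, although the median difference of all genes was only 0.013 on the log2 scale. Without the 3 libraries that stood apart on the first component 363 genes passed, and 198 passed without mice 7154 and 7157, the highest in pituitary transcripts. Below, a gene is said to be called, higher or lower where it passed the limma threshold, and the p given beside a single gene is from a two-sided exact permutation test over mice. The lowest adjusted limma p of any gene was 1 after rounding.

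The intervals show how large a difference the 12 mice could still hide. The 95% interval of the log2 difference lay within a 2-fold change in either direction for 12335 genes, or 90.1% of those tested, and within a 1.5-fold change for 9065 genes, or 66.2%. The median interval reached 0.34 on the log2 scale to each side of the estimate. For genes with a mean normalized count of 50 or more, 96.6% of intervals lay within 2-fold, and for rarer genes 67.4% did. For most hippocampal transcripts a 2-fold difference between the preparations was outside the interval, whereas differences smaller than the interval could not be detected.

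**Figure D1:**
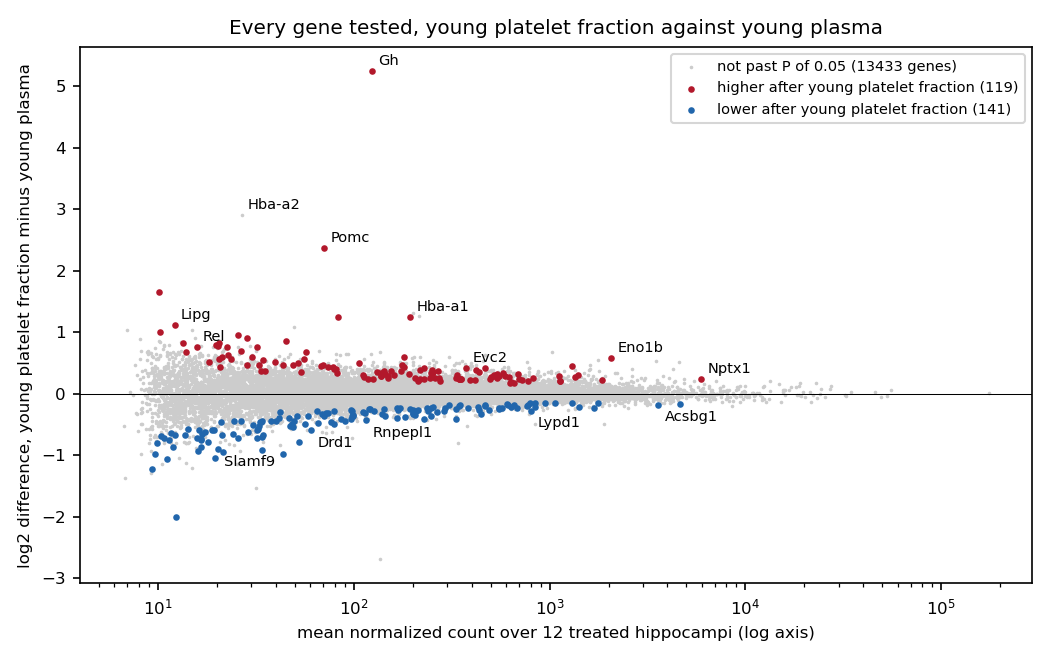
Log2 difference (young platelet fraction minus young plasma, vertical axis) of each of 13693 genes against its mean normalized count over 12 hippocampi (horizontal log axis). Red and blue points are the 119 higher and 141 lower genes at a limma P of 0.05; Gh and Pomc lie far above the band in which nearly all genes fall.

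Hormone transcripts of the pituitary gave the largest differences among the called genes. Growth hormone (Gh, chr11:106300271-106301865 of GRCm38), the product of pituitary somatotrophs, ranged from 3.12 to 829 normalized counts with a median of 72.2 after young platelet fraction, from 0 to 13.3 with a median of 0 after young plasma, and from 2.64 to 74.7 with a median of 16.7 after saline. Mice 7154 and 7157 had the highest values, at 829 and 477, whereas 4 of the 6 young plasma libraries held no Gh read. The groups overlapped only through mouse 7145 at 3.12 and young plasma mouse 7156 at 13.3. The log2 difference was 5.24 ± 1.15 (SE, n = 6 per group, exact p = 0.00433), a fitted value that depends on the pseudocount since most plasma libraries were at 0. Against saline, each in its own table, the difference was 1.70 for young platelet fraction (exact p = 0.273) and -3.54 for young plasma (exact p = 0.013), with the same saline libraries in both.

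Proopiomelanocortin (Pomc, chr12:3954951-3960642), the precursor of corticotropin and the melanocortins, followed the same mice. It ranged from 15.9 to 525 normalized counts with a median of 49.6 after young platelet fraction, from 4.23 to 18 with a median of 11.6 after young plasma, and from 7.05 to 123 with a median of 13.8 after saline. Mouse 7154 was again the highest, at 525, followed by 7157 at 120, and 5 of the 6 young platelet fraction libraries lay above every young plasma library. The log2 difference was 2.37 ± 0.68 (SE, exact p = 0.00433). Without mice 7154 and 7157 it was 1.35 (exact p = 0.019), and that of Gh was 3.66 (exact p = 0.019). Both genes are expressed at high levels in the pituitary, and Pomc also in hypothalamic neurons.

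Prolactin (Prl) and the glycoprotein hormone subunits were too rare to be tested and were looked at after the values of Gh and Pomc had been seen. Prl had 125 normalized counts in mouse 7154 and 53.4 in 7157, no more than 5.12 in the other young platelet fraction mice, and no more than 2.22 in any young plasma mouse. Cga, the shared alpha subunit, had 24.1 and 9.81 in the same mice and no more than 2.21 after young plasma. Fshb, the beta subunit of follicle-stimulating hormone, had 17.5 and 7.63 and no more than 3 after young plasma. Lhb, the beta subunit of luteinizing hormone, overlapped more, with 12 and 4.36 in the same mice and 5.55 and 5.29 in young plasma mice 7147 and 7144 (exact p = 0.909). Tshb, the beta subunit of thyrotropin, had 4.38 in mouse 7154, 0 in 7157 and no more than 1 after young plasma. Summed over 7 hormone genes, the level ranged from 21.9 to 1537 with a median of 134 after young platelet fraction, from 9.53 to 31 with a median of 19.4 after young plasma, and from 11.5 to 204 with a median of 36.7 after saline. The pituitary transcription factors Pou1f1 and Pitx1 had no read in any treated library. Saline mice 7146 and 7596, with Gh at 74.7 and 70.1, also had the highest Pomc of their group, at 66.4 and 123, so hormone reads were not particular to 1 treatment. Whether pituitary RNA in the dissected tissue had a part in the differences of Gh and Pomc was not tested.

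Haemoglobin transcripts, which mark reticulocytes and other red cells in the vessels, were highest in the same mice. Hba-a1, an alpha-globin gene, ranged from 85.3 to 813 normalized counts with a median of 175 after young platelet fraction, from 38.7 to 166 with a median of 88.8 after young plasma, and from 27.7 to 126 with a median of 95.7 after saline. Mouse 7154 had 813, mouse 7157 had 367 and mouse 7148 had 186, all above the young plasma range. The other young platelet fraction mice overlapped that range. Hba-a1 was higher by 1.24 ± 0.48 on the log2 scale (SE, exact p = 0.0476), and by 0.56 without mice 7154 and 7157 (exact p = 0.21), where it was not called. The call was also lost without young plasma mouse 7156, the lowest of that treatment at 38.7, where the difference was 0.99. Hbb-b1, a beta-globin gene, had a log2 difference of 1.24 ± 0.51 (exact p = 0.0606), and 0.48 without both mice (exact p = 0.267). Its call was lost when any of mice 7154, 7157, 7144, 7147 and 7594 was left out, with differences from 0.83 to 1.55 over all libraries.

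Hba-a1 and Hba-a2 transcripts are identical at 99.8% of 538 aligned bases, so reads can be split between them arbitrarily, and only their sum is secure. The 2 alpha-globin genes together held 125 to 904 normalized counts after young platelet fraction, 78.3 to 166 after young plasma and 74 to 126 after saline. The beta-globin genes together held 68.7 to 426 after young platelet fraction, 21.1 to 75.3 after young plasma and 32.3 to 75.8 after saline. Of 13 red cell genes listed, 5 could be tested, and both that passed the threshold were globins. Their 5 differences were all above 0 with a median of 1.24, against a median of 0.013 over all genes. The globins Hba-a1, Hbb-b1 and Hba-a2 carried that median, since the lower quartile of the 5 was 0.051. Hba-a1 and Hba-a2 share reads and are not separate members, and Hba-a2 passed the filter mainly through young platelet fraction libraries. The median of the 5 is therefore a description only. Alas2, the haem synthesis enzyme of red cell precursors, had 19.7 normalized counts in mouse 7154 and no more than 6.35 in any other treated mouse. Its median was 3.67 after young platelet fraction and 3.64 after young plasma (exact p = 0.79). The study perfused the mice with cold buffered saline before dissection, and how much blood each hippocampus kept was not measured.

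Transthyretin (Ttr), the main transcript of the choroid plexus that borders the hippocampus, was also highest in mice 7154 and 7157, at 54982 and 49289 normalized counts. Its range was 1621 to 54982 after young platelet fraction, 1897 to 43232 after young plasma and 848 to 30495 after saline, and the groups overlapped over nearly the whole of it. It differed by 0.18 ± 0.90 on the log2 scale (exact p = 0.857), with a 95% interval from -1.75 to 2.10. None of 22 tested choroid plexus genes passed the threshold, but only 2 of them had an interval within 2-fold. Ttr varied far more between mice than between preparations, and a difference of several fold could not be detected. Whether it had a part in the pituitary and globin values was not tested.

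**Figure D2:**
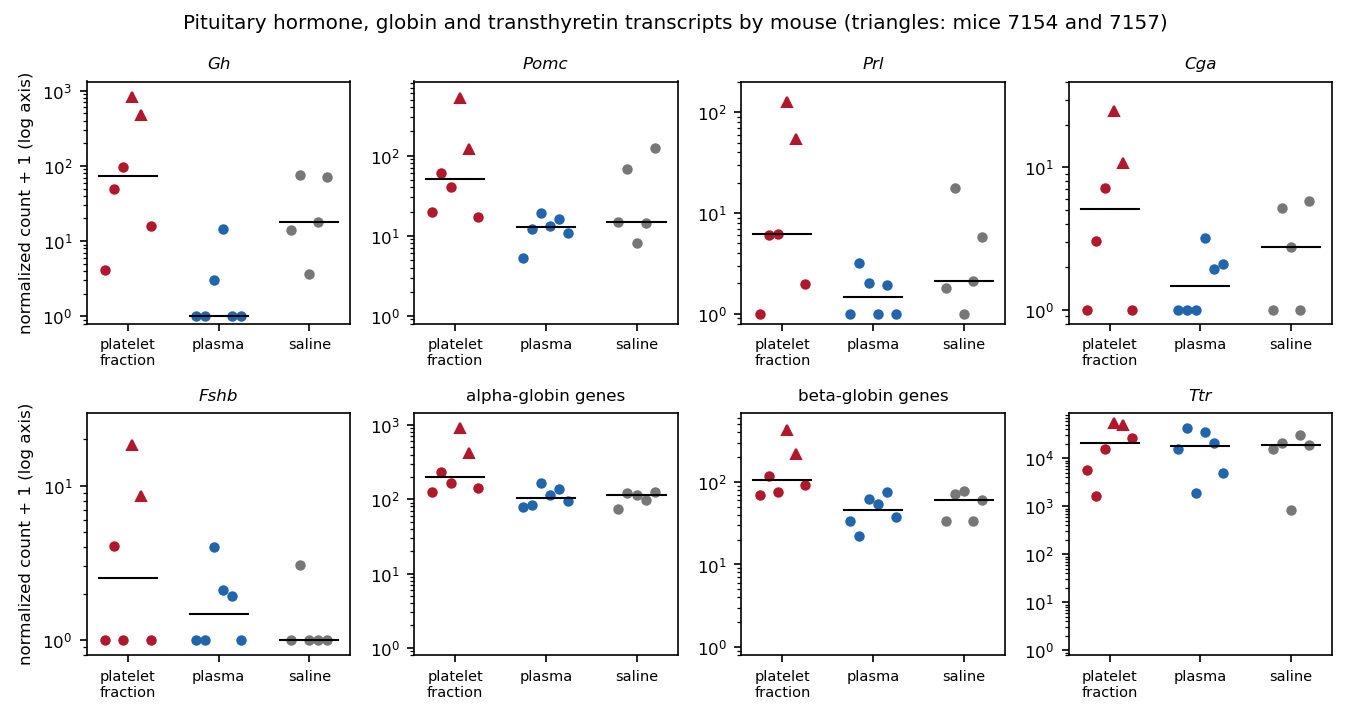
Normalized counts plus 1 (vertical log axis) of 5 pituitary hormone genes, the summed alpha-globin and beta-globin genes and Ttr in each hippocampus, by treatment. Triangles are mice 7154 and 7157, bars are medians, and these 2 mice head the young platelet fraction in all 8 panels.

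The sequence before the start of these genes is shown for Pomc, Prl and Hba-a1, which peaked together in mouse 7154. Each line gives the 120 bases before the RefSeq start (GRCm38.p6, plus strand), with matches to TATAA and to ATGNATA in capitals, both searched on both strands.
Pomc, chr12:3954825-3954944: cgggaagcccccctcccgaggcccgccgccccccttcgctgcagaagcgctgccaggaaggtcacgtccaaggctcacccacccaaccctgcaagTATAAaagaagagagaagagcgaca
Prl, chr13:27057450-27057569: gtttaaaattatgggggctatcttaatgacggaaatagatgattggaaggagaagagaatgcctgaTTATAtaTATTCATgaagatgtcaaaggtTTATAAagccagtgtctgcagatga
Hba-a1, chr11:32283552-32283671: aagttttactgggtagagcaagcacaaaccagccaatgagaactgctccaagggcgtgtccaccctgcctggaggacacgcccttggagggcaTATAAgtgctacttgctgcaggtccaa
TATAA, the core of the TATA box, is found in the same window of 11.8% of 32844 RefSeq promoters. It begins 25 bases before the start in Pomc and 27 in Hba-a1. In Prl 1 match on the plus strand begins 24 bases before the start and overlaps a match on the other strand that begins at 25, and a further match on the other strand begins at 54. ATGNATA, letters found in sites of the pituitary factor Pit-1, is present in 3.30% of the promoters and matches Prl on the minus strand. A match is a description of the letters only, and Gh is not shown.

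Apart from the hormone and globin genes, the leading genes were moderate in size and came from unrelated processes. Only 12 of 13693 genes (0.0876%) had groups that did not overlap, 5 higher (0.0365%) and 7 lower (0.0511%) after young platelet fraction, each with an exact permutation p of 0.00216, the smallest that 6 against 6 mice can give. If the treatments did not matter, a share of 0.00216 of genes would on average separate like this, which is more than was found. For genes named because they separated, this p only restates the separation. For leading genes named for a small P in these data, the exact p is likewise not independent of that choice. The rest of the leading genes shared at least part of their range.

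Slamf9 (chr1:172475358-172478575), a receptor of the SLAM family found on myeloid cells, had the smallest P of all. It ranged from 11.4 to 17.5 normalized counts with a median of 13.2 after young platelet fraction, from 20 to 32.1 with a median of 28.3 after young plasma, and from 10.9 to 18.9 with a median of 14.6 after saline. Every young plasma mouse lay above every mouse of both other treatments. The log2 difference was -0.90 ± 0.20 (SE, exact p = 0.00216, adjusted p = 1), and it lay between -0.98 and -0.85 when each library was left out. Against saline it was -0.10 for young platelet fraction (exact p = 0.515) and 0.80 for young plasma (exact p = 0.00433).

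Lipg (endothelial lipase, a phospholipase that acts on high density lipoprotein) was higher after young platelet fraction. It ranged from 6.24 to 23.6 normalized counts with a median of 19.6 after young platelet fraction, from 5.53 to 8.77 with a median of 7 after young plasma, and from 2.22 to 10.6 with a median of 4.83 after saline. Mouse 7145 at 6.24 was the only young platelet fraction mouse within the young plasma range. Lipg was higher by 1.11 ± 0.31 on the log2 scale (SE, exact p = 0.0108). Only young platelet fraction libraries reached the count set by the filter, and every young plasma library lay under it. Lipg was thus tested only because it was high after young platelet fraction. Its call and p are therefore not independent of the difference and are a description only. Both Slamf9 and Lipg were below the level of 50 set for the leading genes and were chosen after their values were seen.

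Among more abundant genes, Evc2 (chr5:37338499-37425055), a protein at the base of primary cilia that takes part in Hedgehog signalling, ranged from 381 to 486 normalized counts with a median of 421 after young platelet fraction, from 237 to 355 with a median of 346 after young plasma, and from 326 to 503 with a median of 433 after saline. The groups of treated mice did not overlap, and the saline mice spanned both. Evc2 was higher by 0.42 ± 0.11 (log2, exact p = 0.00216). The difference was 0.078 against saline for young platelet fraction (exact p = 0.519) and -0.34 for young plasma (exact p = 0.0476).

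Mrpl1, a protein of the mitochondrial ribosome, ranged from 131 to 173 normalized counts after young platelet fraction and from 96.3 to 127 after young plasma, with a saline median of 131 and no overlap of the treated groups (log2 difference 0.35 ± 0.11, exact p = 0.00216). Ppp6c, the catalytic subunit of protein phosphatase 6, ranged from 258 to 303 after young platelet fraction and from 174 to 258 after young plasma, the nearest mice being almost equal (0.34 ± 0.11, exact p = 0.00216). Sms, spermine synthase of the polyamine pathway, ranged from 510 to 722 after young platelet fraction and from 392 to 505 after young plasma (0.29 ± 0.10, exact p = 0.00216). The remaining separated gene that was higher, 9430038I01Rik, stayed below 22 normalized counts in every treated mouse.

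Other genes among the 10 with the smallest P that were higher after young platelet fraction served varied functions. They were D10Wsu102e (log2 difference 0.39), the zinc finger gene Zfp959 (0.68), Errfi1 (0.34), which encodes a feedback inhibitor of the epidermal growth factor receptor, Napg (0.28), a cofactor of SNARE disassembly, the selenophosphate synthetase homologue Sephs1 (0.37), and Mbip (0.40), which binds a mitogen-activated kinase. Against saline, the log2 differences were 0.17 after young platelet fraction and -0.22 after young plasma for D10Wsu102e, 0.16 and -0.52 for Zfp959, 0.011 and -0.27 for Napg, and 0.041 and -0.36 for Mbip, in the same order. They were 0.21 and -0.13 for Errfi1 and 0.23 and -0.14 for Sephs1, in which the young platelet fraction lay further from saline. Of these, the exact p was under 0.05 for Mbip after young plasma alone (exact p = 0.00866). These values share the saline libraries, so they describe the levels and do not test which preparation moved.

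Rnpepl1 (chr1:92910783-92924384), an aminopeptidase homologue, led the genes that were lower after young platelet fraction. It ranged from 83.2 to 107 normalized counts with a median of 105 after young platelet fraction, from 115 to 170 with a median of 128 after young plasma, and from 97.9 to 175 after saline. Rnpepl1 was lower, with a log2 difference of -0.43 ± 0.12 (exact p = 0.00216), and the treated groups did not overlap. Against saline it was -0.41 for young platelet fraction (exact p = 0.0303) and 0.016 for young plasma (exact p = 0.913).

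Pura, a nucleic acid binding protein of neuronal RNA granules, ranged from 56.2 to 70.9 normalized counts after young platelet fraction, from 72.5 to 88.9 after young plasma and from 47.7 to 90.7 after saline (log2 difference -0.37 ± 0.12, exact p = 0.00216). Exoc3l, a relative of an exocyst subunit, ranged from 9.37 to 20.8 after young platelet fraction and from 21 to 33 after young plasma (-0.68 ± 0.23, exact p = 0.00216). Prr3, Zfp747 and the long noncoding 9230114K14Rik completed the 7 separated genes on this side. Their log2 differences were -0.23, -0.28 and -0.67, and Zfp747 lost its call when any of mice 7154, 7157 and 7144 was left out (range -0.32 to -0.22).

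Lypd1, an anchored protein that modulates nicotinic acetylcholine receptors and is enriched in pyramidal neurons, ranged from 677 to 767 normalized counts with a median of 724 after young platelet fraction, from 717 to 973 with a median of 919 after young plasma, and from 593 to 857 after saline. Only young plasma mouse 7150, at 717, lay within the young platelet fraction range. Lypd1 was lower, with a log2 difference of -0.28 ± 0.08 (exact p = 0.0108). Other genes among the 10 lower ones with the smallest P included Phf21a (-0.38), a subunit of the LSD1 corepressor complex, Rcan1 (-0.37), an inhibitor of calcineurin, Ubap1 (-0.20), a subunit of the ESCRT-I sorting complex, Atp13a1 (-0.21), a pump of the endoplasmic reticulum, Btbd2 (-0.36), and 9530077C05Rik (-0.41). Ttc39aos1 (-0.78) is an antisense transcript, and its reads could not be told apart from those of its partner if strand was not used in counting.

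**Figure D3:**
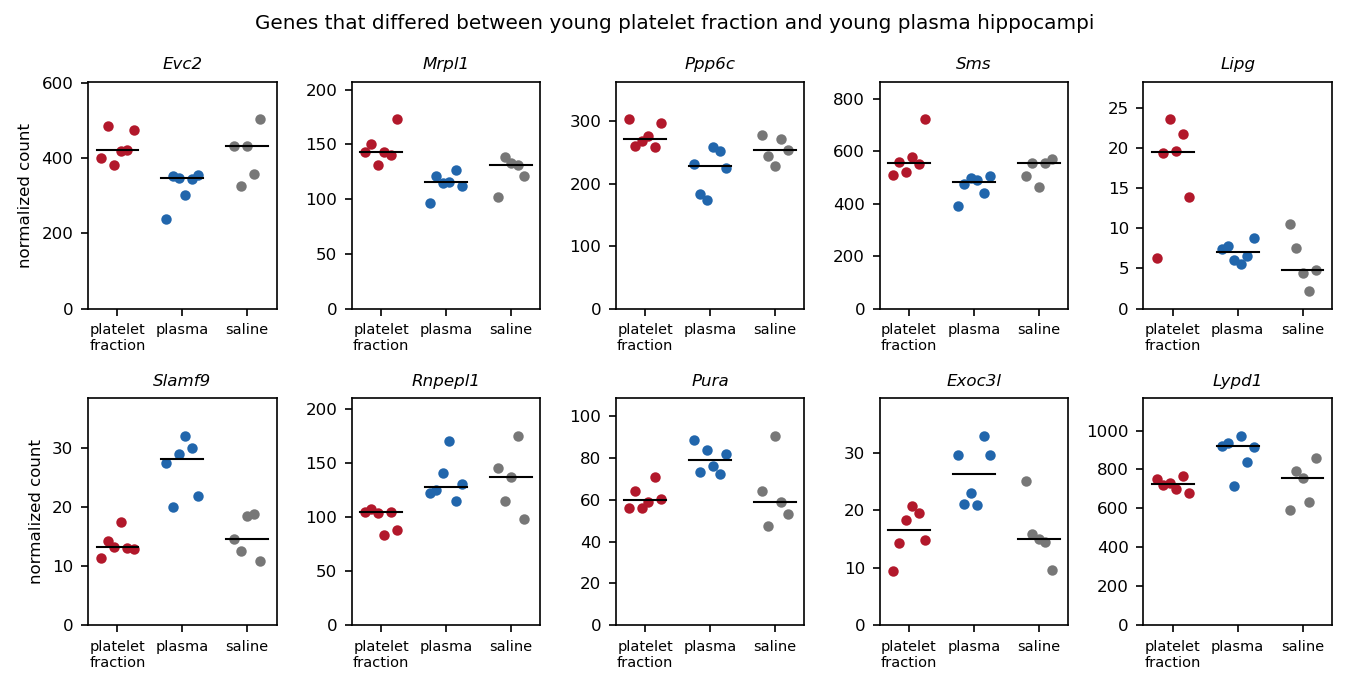
Normalized counts (vertical axis, from 0) of 10 genes in each hippocampus by treatment, with bars at the medians. The upper row holds genes higher and the lower row genes lower after young platelet fraction than after young plasma, and in Slamf9 all 6 young plasma mice lie above all 11 others.

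The gene lists were read against the 119 higher and 141 lower genes and the median of 0.013 over all 13693 genes. Across the 34 lists, no list had more than 2 members called in a direction. Receptors and sensors of blood factors come first. Of 24 tested receptors for platelet and plasma factors, 1 was called, Cd36, a scavenger receptor that binds thrombospondin and oxidized lipoproteins. Cd36 ranged from 7.28 to 17.4 normalized counts with a median of 9.49 after young platelet fraction and from 10 to 39.5 with a median of 19.4 after young plasma (log2 difference -0.87 ± 0.35, exact p = 0.0411), and the call was lost in 6 of 26 alternatives, among them leaving out any of mice 7145, 7595, 7156 and 7594 (range -1.05 to -0.67). P2ry1, a receptor for the platelet signal ADP, was not called, at -0.66 (exact p = 0.0823).

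The marker transcripts of platelets were rare. Of 26 platelet and megakaryocyte genes, 13 could be tested and none passed. The tested members include Clu, also in the complement list, at 7804 to 9796 normalized counts after young platelet fraction and 8689 to 10866 after young plasma. The list as a whole is therefore not a measure of platelet RNA. Pf4, the chemokine of platelet granules, had 3.28 to 14.3 normalized counts after young platelet fraction, 3.18 to 9.99 after young plasma and 3.46 to 7.79 after saline (exact permutation p = 0.409). Ppbp, another granule chemokine and among the most abundant platelet transcripts, had 1.02 in 1 young platelet fraction mouse, 1.11 in 1 young plasma mouse and 0 in all others. Gp9, a further platelet marker too rare to be tested by limma, had 1.02 to 8.72 after young platelet fraction, 0 to 4.42 after young plasma and 0 to 7.32 after saline (exact permutation p = 0.0974). Itga2b, the integrin of platelets and megakaryocytes, was among the tested members, with 5.11 to 17.4 normalized counts after young platelet fraction and 3.29 to 18 after young plasma (log2 difference 0.31, 95% interval -0.55 to 1.16). Cxcr3, the chemokine receptor that the study names for Pf4, had no more than 5.2 normalized counts in any of the 17 libraries.

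Endothelial and blood-brain barrier genes had 2 of 29 members lower and none higher after young platelet fraction, with a median of -0.024. Pecam1, an adhesion protein of endothelial junctions, ranged from 195 to 305 normalized counts after young platelet fraction and from 247 to 361 after young plasma (log2 difference -0.30 ± 0.13, exact p = 0.0455). Mfsd2a, the barrier transporter of lysophosphatidylcholine with docosahexaenoic acid, had a difference of -0.23 ± 0.10 (exact p = 0.0325). The call of Pecam1 was lost in 8 and that of Mfsd2a in 11 of 27 alternatives, and leaving out 1 library gave -0.37 to -0.24 and -0.27 to -0.18. Mice 7154, 7595, 7144, 7147 and 7156 each ended both calls, 7157 that of Pecam1, and 7148 and 7150 that of Mfsd2a. The tight junction gene Cldn5 gave -0.18 (95% interval -0.48 to 0.11). None of 10 endothelial activation genes passed, although 9 of them lay below 0 with a median of -0.13. The exception was Tnfaip3, an NF-kB feedback inhibitor, at 0.49 (exact p = 0.0931).

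Immune genes, the class on which the study centred, held few calls, and the intervals of several were wide. None of 24 antigen presentation genes passed, with 20 of them below 0 and a median of -0.12. None of 32 interferon response genes, 21 complement genes or 24 activated microglia genes passed, with medians of -0.07, -0.052 and -0.0053. Intervals lay within 2-fold for 18 of 24 antigen presentation, 23 of 32 interferon response, 16 of 21 complement and 22 of 24 activated microglia genes. H2-T22, a nonclassical class I gene, was at -0.83 (95% interval -1.70 to 0.045). Among interferon response genes Usp18, which removes the ubiquitin-like protein ISG15 from its targets, was at -0.58 (-1.23 to 0.059), and Irf7, a transcription factor of the interferon response, at -0.45 (-1.05 to 0.14). A 2-fold lower level of these genes after young platelet fraction lay inside their intervals. Among 29 homeostatic microglia genes Tmem119 was lower, at 454 to 599 normalized counts after young platelet fraction, 537 to 727 after young plasma and 587 to 675 after saline (log2 difference -0.24 ± 0.099, exact p = 0.0346). The call of Tmem119 was lost in 6 of 27 alternatives, among them leaving out any of mice 7151, 7154, 7157, 7150 and 7156 (range -0.28 to -0.19). In the same list Siglech gave -0.23 (exact p = 0.0411), and Sall1, a transcription factor of microglial identity, gave 0.37 (exact p = 0.0498). Neither was called. Of the 29 genes, 12 lay above 0 and 17 below, with a median of -0.028.

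Among 39 tested genes of TNF and NF-kB signalling 2 were higher and none lower, with a median of 0.0041. Rel, the c-Rel subunit of NF-kB, ranged from 12 to 27.6 normalized counts with a median of 20.1 after young platelet fraction, from 6 to 15.5 with a median of 12.9 after young plasma, and from 7.93 to 19.4 after saline (log2 difference 0.76 ± 0.27, exact p = 0.0152). Traf3, an adaptor that restrains noncanonical NF-kB signalling, ranged from 272 to 322 after young platelet fraction and from 224 to 294 after young plasma (0.26 ± 0.09, exact p = 0.013). Both lost the call only without the 3 libraries apart on the first component. Nfkb1 was at -0.23 (95% interval -0.61 to 0.15) and Nfkbia at 0.021 (-0.24 to 0.28). Tnf and Il1b, the inflammatory cytokines, had no more than 3 and 4.42 normalized counts in any treated mouse and were too rare to be tested by limma. The exact permutation p was 0.318 for Tnf and 0.0909 for Il1b. Il1b had 0 to 4.38 normalized counts after young platelet fraction and 0.942 to 4.42 after young plasma. Without mice 7154 and 7157 its log2 difference was -1.48 (exact p = 0.019). Those mice were left out after seeing the data and held 4 and 2 of the 7 Il1b reads of their treatment. That difference therefore rests on single reads and on the pseudocount, and no change of Il1b is read from it.

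The remaining immune genes that the study names had intervals around 0. C1qb, which encodes a chain of the complement initiator C1q, had a log2 difference of 0.053 (95% interval -0.12 to 0.23). Itgam, the CD11b integrin of microglia, was at -0.018 (-0.36 to 0.32), and the lysosomal protein gene Cd68 at -0.074 (-0.39 to 0.24). Aif1, which encodes IBA1, was at 0.16 (-0.24 to 0.56) and B2m, the light chain of class I molecules, at 0.089 (-0.26 to 0.43). Tnfsf13b, the B cell factor BAFF, was rarer and less well bounded, at -0.25 (-0.91 to 0.40). All of these intervals lay within 2-fold, so a larger difference between the preparations was outside them.

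Plasticity genes had 1 of 23 members called. Nptx1, a secreted pentraxin that clusters AMPA receptors, ranged from 5428 to 7456 normalized counts with a median of 6314 after young platelet fraction, from 4321 to 6341 with a median of 5602 after young plasma, and from 5659 to 8360 after saline. Nptx1 was higher by 0.23 ± 0.10 on the log2 scale (exact p = 0.0693), and the call was lost in 11 of 27 alternatives, among them edgeR, DESeq2 and leaving out any of mice 7148, 7157, 7595, 7144, 7147 and 7156 (range 0.17 to 0.28). Bdnf, the neurotrophin, was at 0.03 (95% interval -0.29 to 0.35), Ntf3 at -0.29 (-0.74 to 0.16), Lgi1, a secreted synaptic protein, at 0.22 (-0.046 to 0.50), Tmem108 at -0.004 (-0.28 to 0.28) and Neurod1, a factor of young granule cells, at 0.16 (-0.18 to 0.49). No gene passed among 33 immediate early, 37 synaptic vesicle, 34 glutamate receptor and transport, 31 interneuron, 28 dentate granule cell or 20 adult neurogenesis genes. The uncalled immediate early genes nearest the limma threshold were the orphan nuclear receptor genes Nr4a3 at 0.28 (exact p = 0.0476) and Nr4a1 at 0.18 (exact p = 0.026), both above 0, followed by the transcription factor gene Npas4 at -0.62 (exact p = 0.0779). Drd1, a dopamine receptor of striatum and cortex in the list of neighbouring regions, was lower at -0.59 ± 0.23 (exact p = 0.039), 1 of 28 tested in that list. Its call was lost when mouse 7157 or 7144 was left out (range -0.68 to -0.46).

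Myelin genes lay mostly above 0, with 35 of 41 positive and a median of 0.12, but only Anln was called. Anln, a cytoskeletal protein of central myelin, ranged from 219 to 358 normalized counts with a median of 280 after young platelet fraction, from 169 to 301 with a median of 213 after young plasma, and from 150 to 225 with a median of 171 after saline (log2 difference 0.38 ± 0.16, exact p = 0.0541, call lost in 9 of 27 alternatives). Leaving out 1 library gave 0.30 to 0.47, and the call was lost without any of mice 7148, 7154, 7595, 7147, 7150 and 7594. Both preparations were also set beside saline for Opalin and Mbp. Opalin, a membrane protein of mature oligodendrocytes, differed from saline by 0.79 after young platelet fraction (exact p = 0.00433) and 0.52 after young plasma (exact p = 0.0476). Mbp, myelin basic protein, differed by 0.54 (exact p = 0.0433) and 0.49 (exact p = 0.0952), in the same order. Between the preparations, Opalin gave 0.27 (95% interval -0.098 to 0.64) and Mbp 0.056 (-0.35 to 0.46). The comparisons with saline share its libraries and are not independent of each other.

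The few called genes of oligodendrocyte precursors and astrocytes were lower after young platelet fraction. Of 12 oligodendrocyte precursor genes, 2 were lower, Lhfpl3 (-0.37 ± 0.14, exact p = 0.013) and the matrix protein gene Matn4 (-0.25 ± 0.11, exact p = 0.0216). Of 28 astrocyte genes, 2 were lower, the proteoglycan gene Gpc5 (-0.21 ± 0.084, exact p = 0.0173) and Acsbg1, an acyl-CoA synthetase (-0.18 ± 0.083, exact p = 0.0541), and the list median was -0.036. Gfap, the intermediate filament of astrocytes, was at -0.045 (95% interval -0.34 to 0.25). The call of Acsbg1 was lost in 11 of 27 alternatives, and those of Matn4, Gpc5 and Lhfpl3 in 8, 5 and 3. Leaving out mouse 7144 ended the calls of Acsbg1, Gpc5 and Lhfpl3, mouse 7154 those of Acsbg1, Gpc5 and Matn4, and mouse 7157 those of Acsbg1 and Gpc5. Mice 7595, 7147 and 7594 each ended those of Acsbg1 and Matn4, mice 7150 and 7156 that of Acsbg1, and mouse 7148 that of Matn4. Over single libraries left out, the differences lay between -0.22 and -0.15 for Acsbg1, -0.31 and -0.21 for Matn4, -0.24 and -0.16 for Gpc5, and -0.44 and -0.33 for Lhfpl3.

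**Figure D4:**
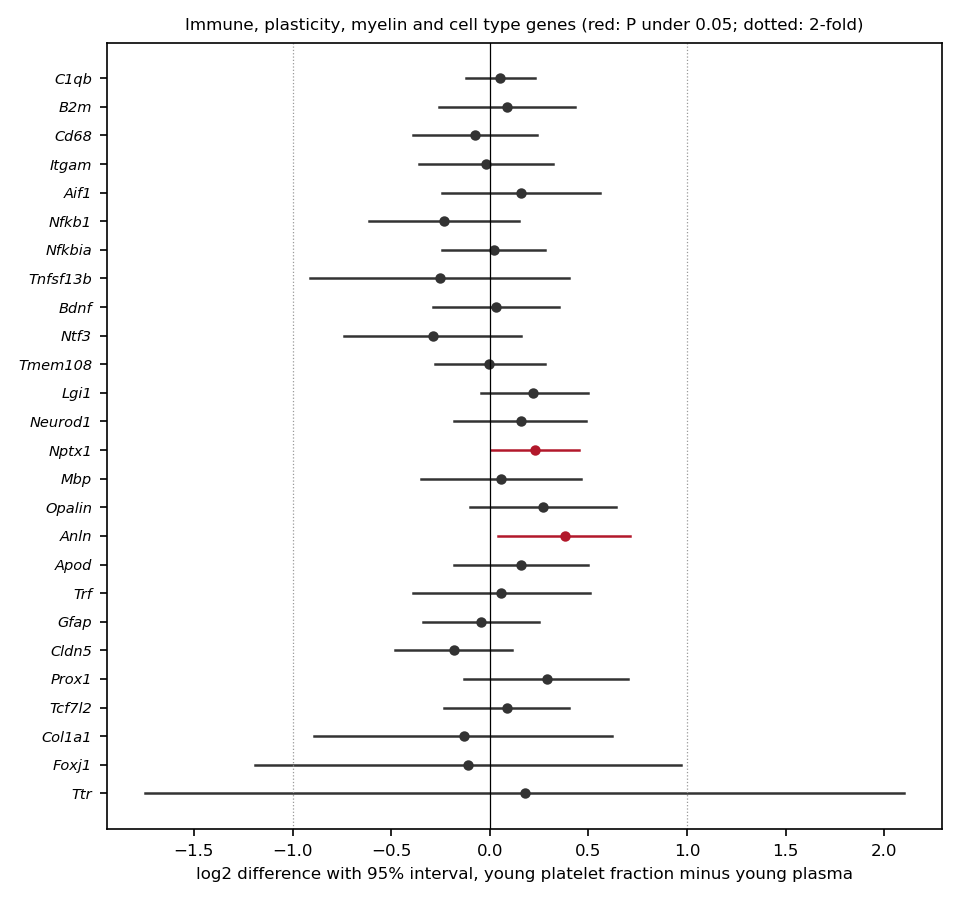
Log2 difference (young platelet fraction minus young plasma, horizontal axis) with its 95% interval for immune, plasticity, myelin and cell type genes. Nptx1 and Anln, in red, passed a limma P of 0.05; Ttr has the widest interval, from -1.75 to 2.10.

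Lists of basic cell functions lay slightly above 0. Of 79 cytosolic ribosomal protein genes, 65 lay above 0, with a median of 0.086 and none called. Of 76 oxidative phosphorylation genes, 65 lay above 0, with a median of 0.095. In that list Ndufa12, a complex I subunit, was called, at 727 to 983 normalized counts after young platelet fraction and 618 to 795 after young plasma (log2 difference 0.20 ± 0.088, exact p = 0.0303). All 76 of these intervals lay within 2-fold, and the call of Ndufa12 was lost when any of mice 7154, 7157, 7595, 7144, 7147 and 7150 was left out (range 0.15 to 0.24). Motile cilia and ependymal genes had the highest median outside the red cell list, at 0.19, with 31 of 37 above 0 and none called, and their summed level ranged from 1196 to 3483 after young platelet fraction and from 1213 to 2950 after young plasma. Over all genes 54% lay above 0, and genes of a list are not independent observations.

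The other lists held no more than 1 call each. Hspa4, a relative of Hsp70, was higher among 38 chaperone genes (0.19 ± 0.075, exact p = 0.0173), and Errfi1 among 25 glucocorticoid-responsive genes. Hspa4 lost its call without mouse 7148 (range over single libraries 0.17 to 0.22). None of 27 cholesterol, 22 circadian clock, 19 iron, 28 meningeal fibroblast and mural or 6 border macrophage and blood leukocyte genes passed. The medians of these lists lay between -0.027 and 0.094. Cholesterol genes were the most tightly bounded of them, with all 27 intervals within 2-fold, and fibroblast and mural genes the least, with 13 of 28.

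**Figure D5:**
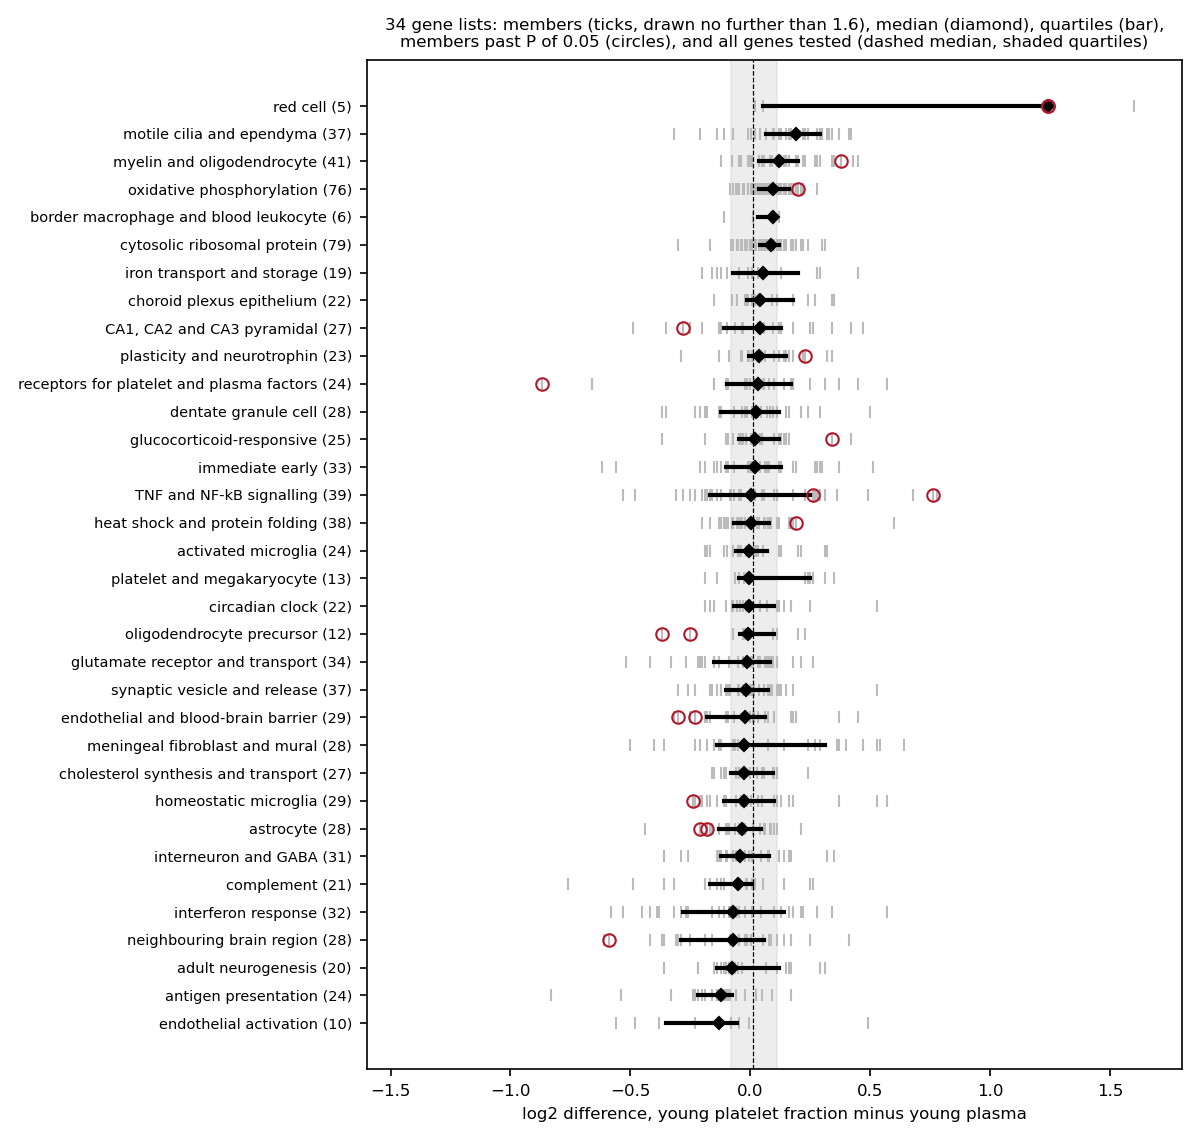
Log2 differences (young platelet fraction minus young plasma, horizontal axis) of the tested members of 34 gene lists, with list medians as diamonds and quartiles as bars. Circles are members past a limma P of 0.05. The red cell list, median 1.24, lies apart through its globins, and the medians of the other lists fall between -0.13 and 0.19.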

How the data were processed

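Hippocampal RNA of 17 mice was analysed. The authors aligned reads with STAR to mm10, counted them with RSEM, and deposited a table for each preparation against saline. The signal that the authors deposited is a normalized count, made with DESeq2 by dividing read counts by a size factor per library. Per the deposited values, whole reads were recovered for 100% of entries within 0.01 read. The columns of fold changes and p-values that the authors deposited were not used. The study's methods name a modified Smart-Seq2 library and the labels a strand-specific poly(A) kit, which was not settled.

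The 5 shared saline libraries had equal reads in both tables, and the platelet fraction table was multiplied by 0.9949 to share their scale. Log2(normalized count + 1) of the 12 treated libraries was fitted with limma 3.58.1 (R 4.3.3, variance trend). The threshold was the study's unadjusted P of 0.05, with Benjamini-Hochberg adjustment beside it. Single genes had two-sided exact permutation tests. Differences from saline used each deposited table alone. The limma, edgeR 4.0.16 and DESeq2 1.42.0 fits were tested on simulated data. DESeq2 and edgeR ran on recovered reads as alternatives, since size factors had already been applied to the deposited values.

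The members and lists were chosen with earlier results of these data known. Leading genes were, in each direction, the 10 called genes of smallest P whose normalized counts averaged 50 or more, up to 3 members of each list, genes the study names and cell type markers. Other named genes were chosen after their values were seen. Coordinates are from GENCODE M21 (GRCm38), promoters from RefSeq. Alternatives were other scalings, filters, pseudocounts of 0.5 and 5, all 17 libraries in the same fit, and leaving out libraries. Leaving out mice 7154 and 7157, and a term for the number range of the titles, were chosen after seeing the data. A result that would name a withheld item is not reported here.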

Additional observations from a re-analysis of the deposited data

Results flagged for a closer look

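Among the genes described, 140 sets of 6 libraries were examined for a library far from the others of its treatment, and 7 had 1, against 7 that chance would give. In young platelet fraction mice, Errfi1 was low in mouse 7151, at 480 normalized counts. In the same treatment 9530077C05Rik was high in mouse 7148, at 117, and Sms was high in mouse 7595, at 722. In young plasma mice, Gfap was high in mouse 7150, at 14571, and Zfp959 was low in mouse 7144, at 24.3. In mouse 7594 of that treatment Eno1b was high, at 3081, and 9430038I01Rik was low, at 5.48. Mouse 7594 is the young plasma library of the other number range. Without mice 7594 and 7595, the log2 difference of Eno1b was 0.81, against 0.58 with all mice.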

How the results depend on the processing

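The counts of called genes moved most with the filter and with single libraries. Without a filter 473 genes passed, with 235 higher and 238 lower. Leaving out 1 library in turn gave 209 to 446 called genes, 99 to 236 higher and 104 to 236 lower. The highest counts came without mouse 7148 (446), without mouse 7151 (392), both of the young platelet fraction, and without young plasma mouse 7159 (440). Without the 3 libraries apart on the first component, 180 genes were higher. Every setting left 0 genes at an adjusted p of 0.05, with 0.234 as the lowest adjusted p, from DESeq2. Of the 260 genes, 230 were also called by edgeR and 223 by DESeq2. Intervals within 2-fold numbered 11753 to 14402 in every setting that gave intervals. Of 49 called genes that the text names, none changed sign. Of those not called, 12 did. Without the 3 libraries apart on the first component, Gfap was at 0.02, Col1a1 at 0.22, Foxj1 at 0.41, Tmem108 at 0.086 and Eno1 at 0.014. Without mice 7594 and 7595, Bdnf was at -0.017, B2m at -0.06, Ttr at -0.26, Mbp at -0.10 and Trf at -0.11. Without mice 7154 and 7157, Ttr was at -0.73, Mbp at -0.054 and Trf at -0.13. Leaving out 1 library gave -0.13 to 0.052 for Itgam, -0.054 to 0.11 for Bdnf, -0.067 to 0.069 for Tmem108, -0.068 to 0.079 for Nfkbia, -0.013 to 0.24 for B2m, -0.38 to 0.82 for Ttr and -0.075 to 0.17 for Mbp. It gave -0.40 to 0.17 for Foxj1, -0.12 to 0.066 for Gfap, -0.32 to 0.13 for Col1a1, -0.11 to 0.015 for Eno1 and -0.095 to 0.18 for Trf. The cause of these changes was not tested. List medians moved by less than the spread between mice in each alternative. None of 173 differences from saline changed sign or call on the joined scale. No paired analysis was possible because each hippocampal label is a mouse number of its own and no label names a shared cage, litter or day. With the number range of the titles as a term, a fit chosen after seeing the data, 265 genes passed, 122 higher and 143 lower, of which 231 were among the 260, and no named gene lost its call.

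No gene passed adjustment, so single calls are not established. Counts of calls, and most calls within lists, depend on single libraries. Levels of rare genes are bounded loosely. The library kit and the strand setting are not settled, and paralogs share reads.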

Other observations

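Some large differences involve genes whose reads cannot be assigned to a single copy. Eno1b, a processed copy of the glycolytic enzyme gene Eno1, had 2042 to 3338 normalized counts after young platelet fraction, 1312 to 3081 after young plasma and 678 to 2737 after saline (log2 difference 0.58, exact p = 0.0281). Its transcript is identical to Eno1 at 99.4% of 1385 aligned bases. Eno1 itself gave -0.058 (exact p = 0.623), and the sum of both genes gave -0.0026, with 17586 to 25074 normalized counts after young platelet fraction and 18593 to 24937 after young plasma. Gm10052 (-2.69, exact p = 0.234) and Hba-a2 (2.90, exact p = 0.197) had the largest differences that did not pass, and both ranged widely within a treatment, from 0 to 351 normalized counts for Gm10052 and from 0 to 90.8 for Hba-a2 after young platelet fraction, and from 0 to 327 and from 0 to 75.2 after young plasma.

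Among rare genes, Ccl21b, a chemokine of lymphatic vessels with near-identical copies, ranged from 8.75 to 20.4 normalized counts after young platelet fraction and from 0 to 18 after young plasma (1.65, exact p = 0.0736), with a saline median of 18.7. Its limma call was lost by edgeR, by DESeq2 and without any of mice 7145, 7148, 7595, 7144, 7147 and 7594, with differences from 1.22 to 2.07 over single libraries left out. Col9a2, a cartilage collagen gene, ranged from 1.09 to 13.3 after young platelet fraction and from 5.48 to 23.3 after young plasma (-1.23, exact p = 0.026), with a saline median of 15.6. The spread between mice was similar in the groups, with a median SD of 0.257 (log2) after young platelet fraction and 0.272 after young plasma, and 43.7% of genes had the larger SD after young platelet fraction.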
